A study of Homo sapiens with 16 samples.

Results

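Untreated chromatin of the human cell lines MOLT4 and DND41, both long established from T-cell acute lymphoblastic leukaemia, was compared through the positions of ATAC-seq peaks. ATAC-seq uses the Tn5 transposase to insert adapters into open chromatin, so a peak marks a stretch of accessible DNA. The libraries chosen were the 8 of the series' 16 that received the vehicle DMSO: 4 of MOLT4 and 4 of DND41, each line with 2 libraries at 3 h and 2 at 24 h. The other 8 libraries, of the same lines and times, received 100 nM ACBI-1, a degrader of the SWI/SNF (BAF) chromatin remodelling ATPases, and served here as libraries that took no part in choosing the regions described, other than in 1 alternative count. The labels name no genetic change made in either line, and each line is 1 established culture, so a difference between them is a difference between these cultures. Nothing in the labels ties the 2 libraries of a group to separate cultures, and every p-value therefore reflects the spread among these libraries alone, which may be technical.

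T-cell leukaemias of this kind arise from immature thymocytes and are often sorted by which developmental transcription factor gene is switched on. TAL1, a basic helix-loop-helix factor of early blood cells, marks one class and TLX3, a homeobox factor not used by normal thymocytes, marks another. MOLT4 is known as a TAL1-positive line and DND41 as a TLX3-positive line. Open sites away from genes are mostly enhancers, which differ between cell types far more than promoters do.

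Groups follow the sample titles. In 4 of the 8 DMSO libraries (MOLT4 at 24 h and DND41 at 3 h) the label field for the cell line gives the other line's name. Peak names in the files carry a code for the line, and it matched the title in 8 of 8 libraries. The library sharing most regions had the same line in its title for 8 of 8 libraries and the same line in the field for 6 of 8. In the 4 libraries whose labels agree, MOLT4 at 3 h and DND41 at 24 h, 10193 regions were open in both MOLT4 and neither DND41 library and 5106 the reverse, but there line and time cannot be told apart.

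The peak lists were similar in length in both lines. MOLT4 libraries held 41486 ± 2723 peaks and DND41 libraries 43615 ± 3467 (SD, n = 4 each), and the ranges overlapped (39117 to 45098 and 39123 to 46712). The log2 ratio of MOLT4 to DND41 was -0.07, smaller than the spread between libraries (exact permutation p = 0.333, two-sided). This test exchanged line labels within each time, which allows 36 arrangements and no p under 0.0556, so no single value here can pass 0.05. Median peak width was 382 ± 62.0 bp in MOLT4 and 330 ± 34.3 bp in DND41 (SD, n = 4 each; exact permutation p = 0.111). Read depth is unknown, because the files hold positions only.

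Because no genome or annotation of the hg19 build was used, genes were located only through windows placed by hand from general knowledge of hg19. There were 80 windows at genes of T-cell identity, antigen receptors, leukaemia, survival and other lineages, each widened by 10 kb on both sides. A region is said to lie in a window, and is not assigned to the gene. The promoters of 4 genes whose windows held a region of 1 line only are shown here, as identities of 2 leukaemia factor genes and 2 cytokine receptor genes described below; other windows differ by more peaks. These sequences are RefSeq promoters on GRCh38.p14, another build than the peaks, and all 4 symbols were found in the RefSeq table. Whether a peak covers them was not determined. Each run of 300 bases is written 5′ to 3′ on the strand of the gene, and capitals mark matches on either strand to GATAA, the core of GATA factor sites, and to TGTGGT, the core of RUNX factor sites.
TAL1, chr1:47232286-47232585, minus strand: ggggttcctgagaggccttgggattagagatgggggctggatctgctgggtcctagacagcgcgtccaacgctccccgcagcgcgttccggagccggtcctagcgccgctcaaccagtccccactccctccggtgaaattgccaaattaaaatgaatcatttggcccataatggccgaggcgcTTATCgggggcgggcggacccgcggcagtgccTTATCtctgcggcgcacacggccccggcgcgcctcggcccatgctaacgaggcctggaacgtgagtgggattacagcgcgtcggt
KIT, chr4:54657707-54658006, plus strand: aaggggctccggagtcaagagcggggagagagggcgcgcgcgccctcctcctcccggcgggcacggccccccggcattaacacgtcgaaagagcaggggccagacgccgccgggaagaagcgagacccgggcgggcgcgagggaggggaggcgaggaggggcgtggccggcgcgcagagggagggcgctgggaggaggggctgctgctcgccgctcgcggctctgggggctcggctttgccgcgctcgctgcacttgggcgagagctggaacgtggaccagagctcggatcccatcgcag
TLX3, chr5:171308998-171309297, plus strand: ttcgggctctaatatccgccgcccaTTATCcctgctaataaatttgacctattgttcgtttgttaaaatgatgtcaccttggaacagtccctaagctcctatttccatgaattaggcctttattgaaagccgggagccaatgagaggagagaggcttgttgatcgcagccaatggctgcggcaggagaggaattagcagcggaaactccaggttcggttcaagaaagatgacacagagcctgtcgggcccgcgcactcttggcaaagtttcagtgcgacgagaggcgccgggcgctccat
IL7R, chr5:35856641-35856940, plus strand: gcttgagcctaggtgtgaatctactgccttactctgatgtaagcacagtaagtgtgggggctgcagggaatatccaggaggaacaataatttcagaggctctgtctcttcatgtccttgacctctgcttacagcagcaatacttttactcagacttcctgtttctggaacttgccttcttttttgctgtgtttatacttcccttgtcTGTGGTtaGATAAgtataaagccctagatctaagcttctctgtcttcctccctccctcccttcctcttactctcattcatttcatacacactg
TAL1 held 2 GATAA matches, TLX3 and IL7R 1 each, and IL7R also 1 TGTGGT match, while KIT held neither. Of 35116 RefSeq promoters of 300 bases, 22.7% held GATAA and 13.1% held TGTGGT on either strand. The motifs do not overlap in sequence, and a match is a description only.

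Merging the peaks of the 8 DMSO libraries gave 98408 regions, and libraries of 1 line shared more of them than libraries of different lines. The shared share of 2 libraries (regions with a peak in both, of those with a peak in either) was 60.4% to 69.2% within MOLT4, with a median of 63.9% over 6 pairs. Within DND41 it was 49.2% to 62.0%, with a median of 52.1% over 6 pairs. Between the lines it was 39.2% to 47.8%, with a median of 42.3% over 16 pairs. Every pair within a line shared more than every pair between lines. DND41 libraries were less alike among themselves, and 28947 regions had a peak in 1 DND41 library alone against 13358 in 1 MOLT4 library alone. A single DND41 library held between 4233 and 11314 such regions, and a single MOLT4 library between 2345 and 4076.

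**Figure D1:**
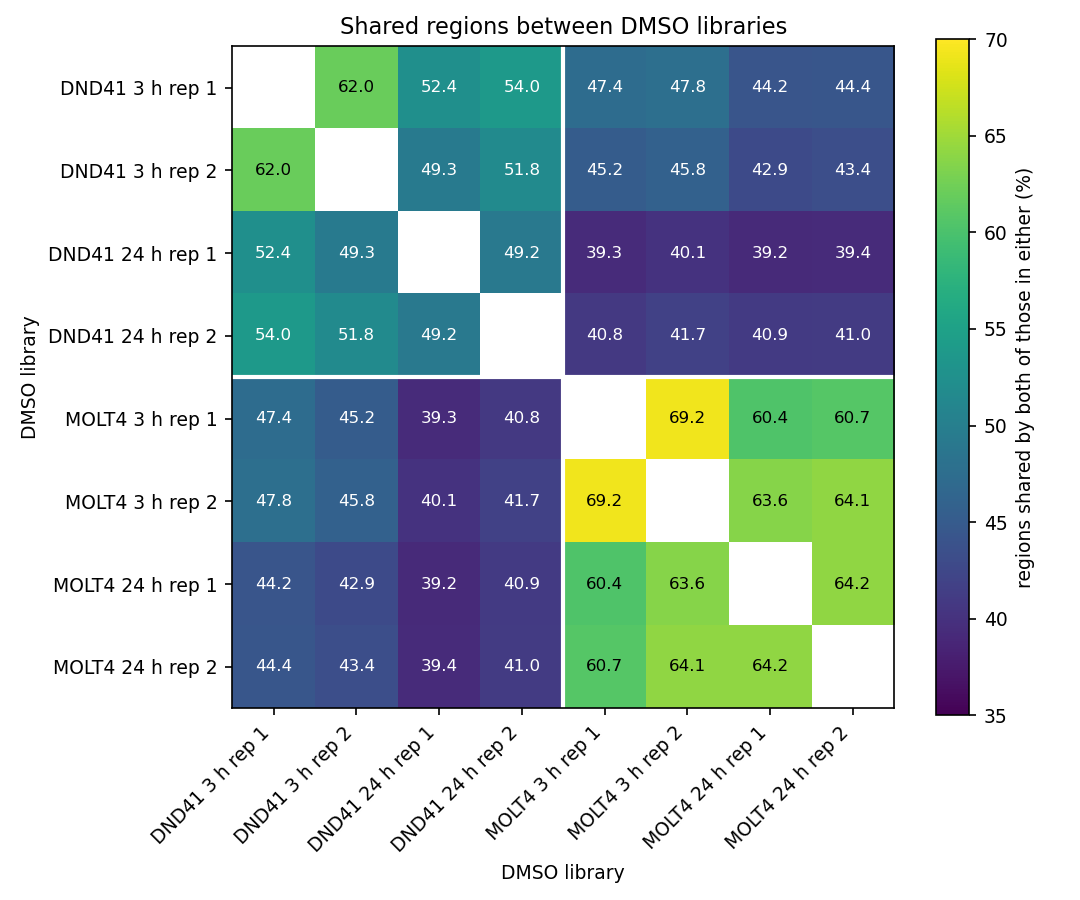
Share of regions common to each pair of DMSO libraries, as a percent of the regions with a peak in either, with libraries on both axes and white lines between the cell lines. The 16 squares between lines lie at 39.2% to 47.8%, below the 12 pairs within a line.

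Line-specific regions were those with a peak in all 4 DMSO libraries of one line and in none of the other. MOLT4 had 4553 and DND41 2408, a ratio of 1.89, which makes 11.8% and 6.23% of the 38639 regions found in at least 4 libraries. By comparison, 18497 regions had a peak in all 8 libraries. Just outside the rule, 2316 regions had a peak in 3 MOLT4 and no DND41 library and 1158 in 4 MOLT4 and 1 DND41 library. The same counts for DND41 were 2189 and 1052. The likeness of libraries within a line, given above, differs in the same direction as these counts, and its part in the ratio was not tested. These counts are set by the rule and carry no test.

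Line-specific regions were narrower and lay farther from shared open chromatin than regions of all 8 libraries. Median width was 399 bp for MOLT4-specific, 344 bp for DND41-specific and 609 bp for shared regions. The median distance to the nearest region of all 8 libraries was 57.6 kb from MOLT4-specific and 44.7 kb from DND41-specific regions, and 27.2 kb between shared regions. Neither trait was particular to these classes. Regions of all 4 MOLT4 and 1 to 3 DND41 libraries had a median width of 372 bp and distance of 38.5 kb, and the reverse class 330 bp and 34.9 kb. Regions of 3 MOLT4 and no DND41 library had 258 bp and 51.0 kb. Those of 3 DND41 and no MOLT4 library had 253 bp and 44.3 kb. Of MOLT4-specific regions 9.86%, and of DND41-specific regions 8.97%, lay within 10 kb of another of the same class. This share depends on the size of the class, and the 23.9% of shared regions comes from 18497. In classes nearer in size it was 4.45% (2316 regions of 3 MOLT4 and no DND41 library) and 3.75% (2189 of 3 DND41 and no MOLT4 library). It was 7.41% for 4046 regions of all 4 MOLT4 and 1 to 3 DND41 libraries, and 5.98% for 3932 of the reverse.

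Libraries that took no part in the choice showed the same division. Regions chosen at one time only (a peak in both libraries of one line and neither of the other) were read in the DMSO libraries of the other time. MOLT4 regions chosen so had a peak in 77.7% ± 8.87 of cases in MOLT4 and 10.3% ± 5.59 in DND41 libraries (SD, n = 4 each; exact permutation p = 0.0556, the smallest the design allows). DND41 regions had a peak in 67.8% ± 9.93 in DND41 and 14.5% ± 7.13 in MOLT4 libraries (SD, n = 4 each; exact permutation p = 0.0556). Every library of the line was above every library of the other.

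ACBI-1 libraries gave the same order. Their lists were shorter, with 26145 to 33870 peaks against 39117 to 46712 in the DMSO libraries. A shorter list can hold fewer of the regions of either line, and its part in the shares below was not tested. The 4553 MOLT4-specific regions had a peak in 41.5% to 64.8% of cases in the 4 MOLT4 libraries with ACBI-1 (mean 52.7% ± 11.3, SD), and in 1.02% ± 0.34 in the 4 DND41 libraries with ACBI-1 (exact permutation p = 0.0556). DND41-specific regions were found at 35.4% to 63.7% in DND41 (mean 45.4% ± 12.96, SD, n = 4) and at 3.37% ± 0.85 in MOLT4 (SD, n = 4) with ACBI-1 (exact permutation p = 0.0556). Of the MOLT4-specific regions, 4395 of 4553 had no peak in any DND41 library with ACBI-1, and of the DND41-specific regions 2184 of 2408 had none in any MOLT4 library with ACBI-1.

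**Figure D2:**
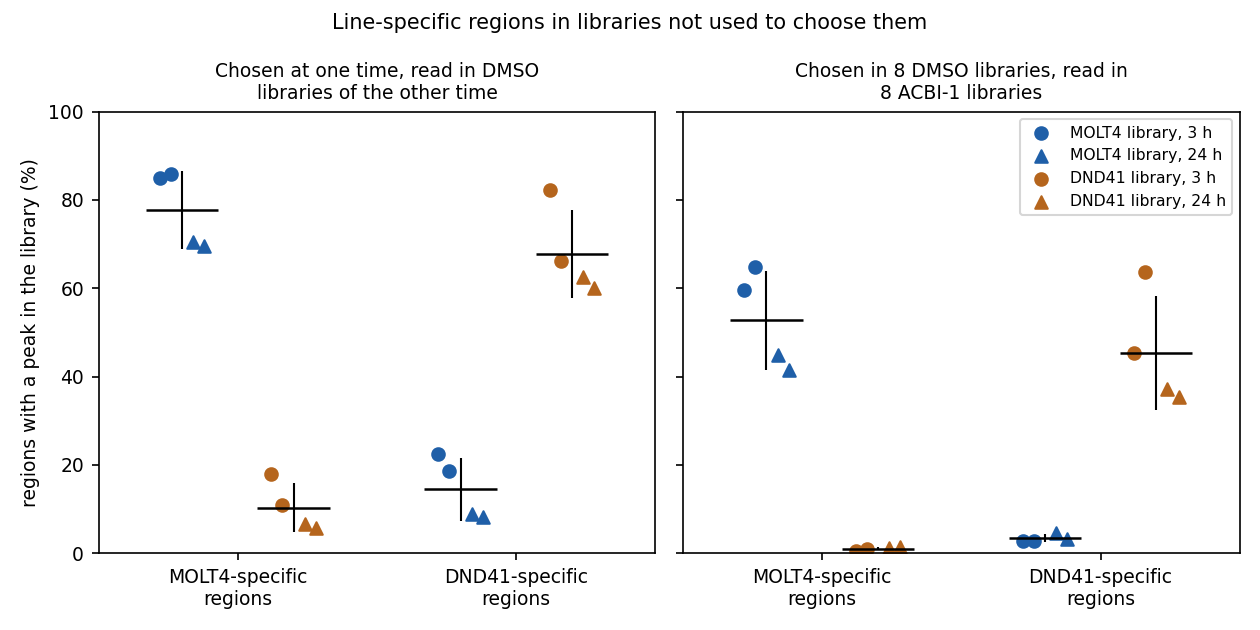
Percent of line-specific regions with a peak in each library not used to choose them, by region class (x axis); circles are 3 h and triangles 24 h libraries, lines are means and bars SD over 4 libraries. In both panels libraries of the same line lie above those of the other, at 41.5% to 64.8% against 0.571% to 1.30% for MOLT4-specific regions in ACBI-1 libraries.

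The landmark windows were read as the number of peaks per library, counting regions found in at least 2 of the 8 libraries. In 16 of 80 windows every MOLT4 library had more peaks than every DND41 library, in 9 every DND41 library had more, and in 55 the lines overlapped. Over 20861 tiles of 100 kb across the genome the same happened in 11.5% and 6.63% of tiles, and tiles differ from the windows in length and content. For these 25 windows the exact permutation p was 0.0556, at the limit of the design, so none passes 0.05. Leaving out a library can only keep or raise these counts of windows. Without the second DND41 library at 3 h, the windows higher in DND41 numbered 15.

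Among 11 windows at leukaemia transcription factor genes, 4 were higher in MOLT4 (TAL1, TLX1, MEIS1 and MYCN) and 1 in DND41 (TLX3). The TAL1 window held 2 peaks in each of the 4 MOLT4 libraries and 0 in each of the 4 DND41 libraries. One of the 2 regions, chr1:47690872-47691639, was covered over 449 and 667 bp at 3 h and 647 and 707 bp at 24 h in MOLT4. The other, chr1:47704609-47705524, was covered over 502 and 592 bp at 3 h and 727 and 810 bp at 24 h. Both had a peak in 4 of 4 MOLT4 libraries with ACBI-1 and in 0 of 4 DND41 libraries with ACBI-1. With the window widened by 50 kb the difference was 1.75 peaks per library and the lines overlapped.

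TLX3 showed the reverse. Its window held 2 peaks in every DND41 library and 1 in every MOLT4 library. The region of chr5:170735726-170736917 was covered over 694 and 455 bp at 3 h and 1192 and 998 bp at 24 h in DND41, with no peak in any MOLT4 library. It kept a peak in 4 of 4 DND41 libraries with ACBI-1 and had none in MOLT4 with ACBI-1. The neighbouring region of chr5:170733918-170734676 had a peak in all 8 DMSO libraries, so the windows differ at 1 site and not along their length. With a 50 kb flank the difference was -1.25 peaks per library and the lines overlapped.

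MEIS1, a homeobox partner of HOX proteins, had 4, 5, 5 and 4 peaks in MOLT4 and 1, 1, 0 and 1 in DND41 (3 h pair, then 24 h pair). Its 3 MOLT4-specific regions formed a run at chr2:66660219-66662476. TLX1, the related homeobox gene, had 4, 3, 3 and 4 peaks in MOLT4 and 1, 1, 0 and 1 in DND41, and overlapped with a 50 kb flank (difference 2.25). MYCN, a MYC family factor, had 3, 2, 2 and 2 against 1, 1, 1 and 0. Its one MOLT4-specific region, chr2:16079925-16081084, was covered over 952 to 1131 bp in MOLT4 and had a peak in 4 of 4 MOLT4 libraries with ACBI-1. The LMO2 window, at a TAL1 partner gene, held 1 peak in each DND41 library and 2, 2, 1 and 1 in MOLT4. The HOXA cluster window held 5, 5, 5 and 4 in MOLT4 and 8, 5, 4 and 4 in DND41. Neither window separated the lines with the 10 kb flank. With 50 kb on each side LMO2 did, at 1.5 peaks per library more in MOLT4, and the sign at HOXA turned to 0.75 more in MOLT4.

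Of 17 windows at T-cell transcription factor genes, 7 were higher in MOLT4 and 2 in DND41. RUNX1, which encodes a runt-domain factor of blood stem cells and T cells, had 25, 24, 23 and 22 peaks in MOLT4 and 12, 8, 10 and 9 in DND41. It held 8 MOLT4-specific regions and no DND41-specific one. One of them, chr21:36180492-36181214, was covered over 633, 697, 552 and 535 bp and had a peak in 4 of 4 MOLT4 libraries with ACBI-1. Another, chr21:36418030-36418596, was covered over 503, 451, 534 and 497 bp and had a peak in 3 of 4.

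ERG, an ETS factor of early progenitors, had 10, 9, 9 and 9 peaks in MOLT4 and 1 in each DND41 library. The 1 region open in both lines was chr21:39758752-39759486. The other 11 regions of that window had no DND41 peak, and 4 of them met the rule for MOLT4-specific regions. Between chr21:39759487 and chr21:39982630, a distance of 223 kb, no DND41 library had a peak.

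LEF1, a T-cell HMG-box factor, had 17, 18, 16 and 16 peaks in MOLT4 and 15, 11, 8 and 8 in DND41, and overlapped with no flank or a 50 kb flank. MYB, a factor that immature blood cells need, had 5, 6, 5 and 4 against 3 in each DND41 library, with 1 MOLT4-specific region, chr6:135556361-135557627, covered over 828 to 1267 bp. The MYB window overlapped with no flank (a difference of 1, exact permutation p = 0.222) and with regions of 1 library counted. ETS1, IKZF3 and TCF12 had 8 or 9, 5 to 7, and 7 or 8 peaks in MOLT4 against 4 to 7, 3 or 4, and 1 to 6 in DND41. IKZF3 overlapped with a 50 kb flank (difference 1.25) and with regions of 1 library counted. GATA3, required for the T lineage, went the other way with 5 peaks in every DND41 and 4 in every MOLT4 library. The added region, chr10:8103062-8103780, was covered over 386, 139, 719 and 318 bp in DND41. With 50 kb on each side of GATA3 the difference was 0. BACH2, a repressor of effector differentiation, had 13 or 14 peaks in DND41 and 11 or 12 in MOLT4, and overlapped with a 50 kb flank. The remaining 8 windows, TCF7 and BCL11B among them, overlapped.

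At T-lineage surface genes the lines overlapped in 16 of 18 windows. CD7 had 3 peaks in all 8 libraries and the CD3 genes 5 or 6. The 2 exceptions were cytokine receptor genes of early thymocytes. KIT, the receptor of stem cell factor, had 2, 2, 3 and 3 peaks in MOLT4 and 0 in each DND41 library. Its regions at chr4:55523892-55524332 (391, 356, 418 and 405 bp) and chr4:55524492-55525121 (439, 628, 411 and 388 bp) also had peaks in 4 of 4 MOLT4 and 0 of 4 DND41 libraries with ACBI-1. IL7R, the interleukin-7 receptor, had 3 peaks in every DND41 and 2 in every MOLT4 library. The third, chr5:35859025-35859702, was covered over 493, 485, 482 and 313 bp in DND41 and had a peak in 4 of 4 DND41 libraries with ACBI-1 and none in MOLT4.

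**Figure D3:**
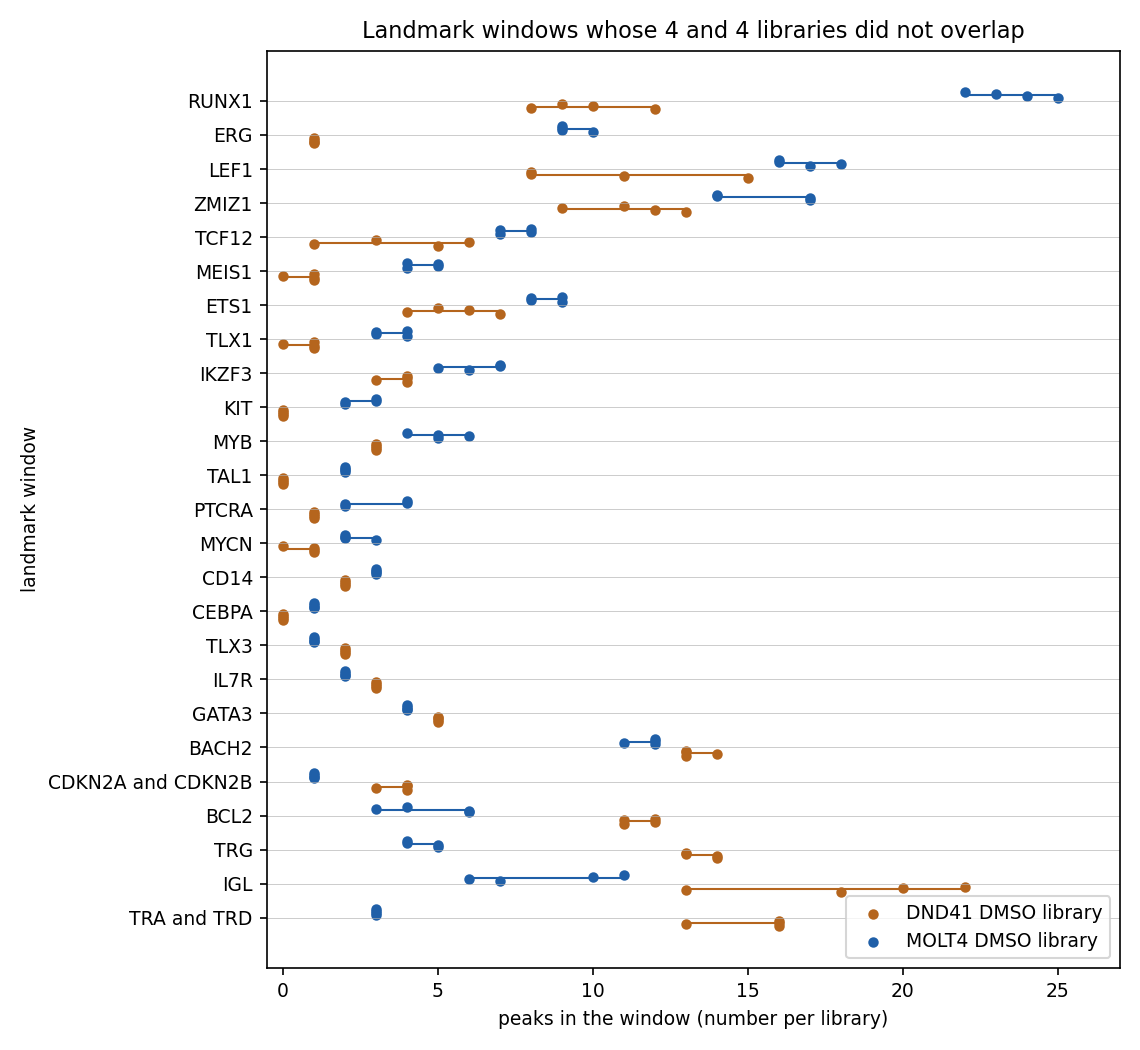
Peaks per library (x axis) in the 25 landmark windows whose lines did not overlap, sorted by difference; each point is 1 DMSO library and each line its group's range. RUNX1 reads 22 to 25 in MOLT4 against 8 to 12 in DND41, and the T-cell receptor window TRA and TRD reads 3 against 13 to 16.

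Antigen receptor genes are cut and rejoined in lymphocytes, so that a cell loses the DNA between joined segments on that chromosome. Copy number was not measured here, and a lost stretch and a closed one cannot be told apart from peak positions. The TRA and TRD window (T-cell receptor alpha and delta) had 3 peaks in every MOLT4 library and 16, 13, 16 and 16 in DND41. Over chr14:21994884-23024987, 1030 kb, no MOLT4 library had a peak while DND41 had 19, 13, 17 and 17, including 8 regions in all 4 DND41 libraries. With ACBI-1, 1 of 4 MOLT4 libraries had 1 peak there and the DND41 libraries had 7 to 14.

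TRG, the receptor gamma locus, had 5, 5, 4 and 4 peaks in MOLT4 and 14, 14, 13 and 13 in DND41. Its 8 DND41-specific regions formed the DND41 run with most regions, chr7:38375053-38402648, inside a stretch with no MOLT4 peak from chr7:38273111 to chr7:38402714 (130 kb). Both edges of that stretch were open in all 8 libraries. At its upper edge, chr7:38402715-38403383 was covered over 401, 364, 553 and 669 bp in MOLT4 and 166, 157, 190 and 190 bp in DND41. That difference passed the width test described further on, with a log2 value of 1.41 (SE 0.14; limma, Benjamini-Hochberg adjusted p = 0.00566).

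TRB, the receptor beta locus, did not separate the lines by number (35, 32, 29 and 30 in MOLT4, 36, 28, 31 and 29 in DND41). It did hold regions of 1 line, 5 in MOLT4 and 3 in DND41. Among them chr7:142326251-142327158 (849, 843, 880 and 854 bp) and chr7:142333855-142334779 (604, 894, 902 and 836 bp) had a peak in all 4 MOLT4 libraries with and all 4 without ACBI-1, and in no DND41 library. The IGL light chain window had 7, 6, 10 and 11 peaks in MOLT4 and 18, 13, 20 and 22 in DND41. PTCRA, the pre-T-cell receptor alpha gene, had 2, 2, 4 and 4 peaks in MOLT4 and 1 in each DND41 library.

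Growth and survival genes gave 2 of 8 windows higher in DND41 and none in MOLT4. BCL2, the inhibitor of apoptosis, had 11, 12, 11 and 12 peaks in DND41 and 6, 6, 3 and 4 in MOLT4. A stretch of 90.5 kb, chr18:60867704-60958176, had no MOLT4 peak with or without ACBI-1 and held 5 regions of all 4 DND41 libraries. One of them, chr18:60883700-60884317, was covered over 474, 433, 502 and 618 bp in DND41.

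The window of CDKN2A and CDKN2B, neighbouring cell cycle inhibitor genes often deleted in T-cell leukaemia, had 4, 3, 4 and 4 peaks in DND41 and 1 in each MOLT4 library. The region of chr9:21974627-21975643 was covered over 963, 969, 968 and 994 bp in DND41 and had no MOLT4 peak, and likewise chr9:22005084-22006426 (1339, 596, 1072 and 993 bp). Between these, chr9:21993983-21995692 was open in both lines at like widths, 1302, 1126, 1590 and 1506 bp in MOLT4 and 1398, 1066, 1551 and 1370 bp in DND41.

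In the 5 NOTCH pathway windows 1, ZMIZ1 (a cofactor of NOTCH1), was higher in MOLT4, with 17, 17, 14 and 14 peaks against 13, 12, 9 and 11. That separation was lost with no flank, with a 50 kb flank and with regions of 1 library counted. The windows of NOTCH1, NOTCH2, HES1 and DTX1 overlapped. Markers of other lineages gave 2 of 12 windows higher in MOLT4. CEBPA, a myeloid factor gene, had 1 peak in each MOLT4 and 0 in each DND41 library, and CD14 3 against 2. SPI1, also listed as a myeloid marker, leaned the other way and overlapped, with 0, 1, 0 and 0 peaks in MOLT4 and 1, 1, 1 and 2 in DND41. MPO and HBB had 0 in all 8 libraries, and the B-cell genes MS4A1, CD79A, PAX5 and EBF1 overlapped.

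At regions open in both lines the extent of the peak was compared. Over the 18497 regions of all 8 libraries, limma on log2 covered bases, with time as a term and each library centred, found 370 wider in MOLT4 and 436 wider in DND41 (Benjamini-Hochberg adjusted p under 0.05). These were 2.0% and 2.36% of regions tested, and 135 and 157 of them differed at least 2-fold. Width depends on depth and on the calling as well as on the site, and leaving out any 1 library lowered the counts to between 165 and 236 for MOLT4 and between 166 and 284 for DND41. Without centring of the libraries MOLT4 had 275 and DND41 178, and quantile normalization gave 410 and 388. Which line had more thus depends on the scaling, and it also turned without the first 3 h (236 and 172), first 24 h (228 and 166) or second 24 h (234 and 187) DND41 library. A line difference that changed with time was called at 0 of 18497 regions by limma, with 1248 at an unadjusted p under 0.05.

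The region with the largest difference toward MOLT4 was chr6:86159201-86160392, in a window at NT5E, the ectonucleotidase CD73. It was covered over 1190, 980, 984 and 1059 bp in MOLT4 and 270, 223, 164 and 180 bp in DND41, a log2 difference of 2.30 (SE 0.14; limma adjusted p = 0.00184). Next came chr2:240546899-240549287 with 1700 ± 683 against 436 ± 241 bp and chr4:186130434-186131732 with 1232 ± 93.9 against 302 ± 48.1 bp (SD, n = 4 each; limma). A region in a window at CBR3, a carbonyl reductase, chr21:37507272-37508452, had 1073 ± 90.9 against 285 ± 93.2 bp (SD, n = 4 each). Toward DND41 the first was chr1:9688987-9690283, covered over 1040 ± 178 bp against 300 ± 135 bp in MOLT4 (SD, n = 4 each). In a window at GAB2, a signalling adaptor, chr11:78002743-78003943 was covered over 981, 770, 1106 and 1201 bp in DND41 and 204, 357, 198 and 363 bp in MOLT4 (log2 -1.95, SE 0.24; limma adjusted p = 0.00861). In a window at KLF12, a repressor, chr13:74339632-74340507 had 730 ± 86.4 against 224 ± 51.5 bp (SD, n = 4 each). The windows at NT5E, CBR3, GAB2 and KLF12 are not landmark windows and were placed after the values were seen.

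Of 230 such regions in landmark windows, 6 were wider in MOLT4 and 6 in DND41, near the 2.0% and 2.36% of all regions. Wider in MOLT4 were 2 regions at FLI1, an ETS factor, and 1 each at LEF1, BCL11B, CD5 and TRG. At FLI1, chr11:128598804-128599500 averaged 482 bp in MOLT4 and 250 bp in DND41 (log2 0.92, SE 0.17; limma adjusted p = 0.0282). Wider in DND41 were single regions at HOXA, HES1, GATA3, BCL2, CCND3 and EBF1. At HES1, a repressor and direct NOTCH target, chr3:193858574-193859858 averaged 984 bp in DND41 and 557 bp in MOLT4 (log2 -0.88, SE 0.14; limma adjusted p = 0.0203). At HOXA, chr7:27189985-27191081 averaged 761 bp in DND41 and 291 bp in MOLT4 (log2 -1.46, SE 0.21; limma adjusted p = 0.0145), although the cluster's number of peaks overlapped.

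**Figure D4:**
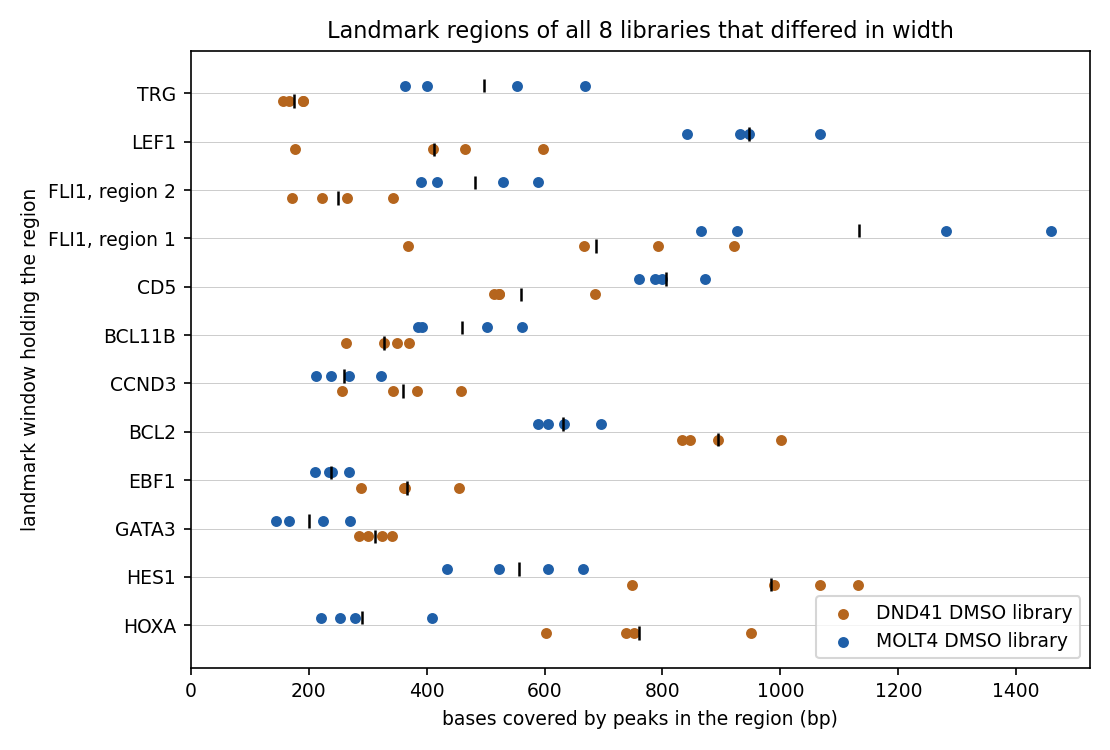
Bases covered by peaks (x axis, bp) at the 12 landmark regions of all 8 libraries that passed the width test; points are DMSO libraries and black ticks the group means. The upper 6 are wider in MOLT4 and the lower 6 in DND41, with HOXA at 291 against 761 bp.

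The widest line-specific regions were also found in libraries that the rule did not use. The 5 highest by width rank in each line had a peak in 4 of 4 libraries of the same line with ACBI-1 and in 0 of 4 of the other. Over all line-specific regions this held for 1244 of 4553 in MOLT4 and 388 of 2408 in DND41. In MOLT4 the first was chr1:149858057-149860123, covered over 1492, 1549, 1991 and 1892 bp. Others lay in windows at SYDE2 (chr1:85666101-85667807, 1594 ± 79.7 bp), ST6GAL1, a sialyltransferase (chr3:186647929-186649467, 1418 ± 113 bp), and RAB32, a small GTPase (chr6:146864329-146865888, 1425 ± 79.9 bp; SD, n = 4 each). The fifth was chr12:126467710-126469315. In DND41 the first lay in a window at MGST2, a glutathione transferase (chr4:140586701-140588295), covered over 1579, 843, 1508 and 1515 bp. A second lay at ZNF516, a zinc finger gene (chr18:74088650-74089742), with 1074, 1054, 1080 and 1048 bp. The other 3 were chr5:66461513-66462823, chr7:17273277-17274662 and chr6:158383434-158384821. The gene windows of this paragraph and of the runs below were placed after the values were seen.

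Some line-specific regions followed one another. A run was at least 3 of them in a row with no other region of 2 or more libraries between. MOLT4 had 106 runs with 360 regions, 7.91% of its specific regions, and DND41 53 runs with 186 regions, 7.72%. The median run spanned 78.3 kb in MOLT4 and 49.0 kb in DND41, and 8 and 5 runs had at least 5 regions. Run numbers were sensitive to single libraries: MOLT4 had 179 without its second 24 h library, and DND41 86 without its second 3 h library and 89 without its second 24 h library.

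The MOLT4 runs with most regions had 7 each, chr17:68164799-68618841 (454 kb, in a window at the potassium channel gene KCNJ2) and chr20:55468210-55584810. Runs of 6 lay at chrX:10176837-10588769 (window of MID1, a ubiquitin ligase), chr4:186638511-186854681 (SORBS2, an adaptor of the cytoskeleton) and chr17:76627972-76733203 (CYTH1, an exchange factor of lymphocyte adhesion). Each MOLT4 library with ACBI-1 had 4 to 8 peaks in the CYTH1 run and the DND41 libraries 0. In DND41 the run of 8 at TRG was followed by 1 of 6 at chr12:94274747-94401988 and by 3 of 5, at chr2:41288245-41469186, chr6:149416094-149490479 and, in the BCL2 window, chr18:60872745-60935716. The BCL2 run had 5 peaks in each DND41 library with ACBI-1 and 0 in MOLT4.

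Long stretches without a peak in one line were taken where no library of the line had a peak and at least 5 regions of all 4 libraries of the other line lay between. MOLT4 had 10 such stretches (4.60 Mb in all, 90.5 to 1293 kb) and DND41 15 (9.16 Mb, 93.9 to 1494 kb). With ACBI-1, 7 of the 10 and 6 of the 15 had no peak in the line either. Leaving out a library loosens this rule too, and without the first MOLT4 library at 3 h the MOLT4 stretches numbered 18. Behind the TRA and TRD and TRG stretches came chr9:76316878-76860678 and chr12:94245470-94426854 with 6 regions each. The first of these had 1 peak in 1 MOLT4 library with ACBI-1. The second had 7, 9, 6 and 7 peaks in DND41 and none in any MOLT4 library with or without ACBI-1. Next was chrX:145360440-146653350 with 5 regions, at 1293 kb the longest stretch without a MOLT4 peak. It had 8, 9, 9 and 7 peaks in DND41 and none in any MOLT4 library with or without ACBI-1.

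The longest stretch without a DND41 peak was chr17:67599570-69094017, 1494 kb, where MOLT4 had 12, 12, 13 and 11 peaks. One DND41 library with ACBI-1 had 1 peak in it and the MOLT4 libraries with ACBI-1 had 6 or 7. Also on chromosome 17, chr17:76375162-76744656 (369 kb) had 9, 10, 13 and 14 peaks in MOLT4 and none in any DND41 library, with or without ACBI-1. Chromosome 20 held 2 more, chr20:55355100-55664799 and chr20:49923600-50719994, both also empty in DND41 with ACBI-1. The second of these had 6 regions, as had chrX:10157891-11129066 and chr9:124461982-124754885. With ACBI-1, 2 DND41 libraries had up to 2 peaks in the stretch on chromosome X, and 1 had 1 peak in that on chromosome 9. A deletion, a closed domain and a stretch that failed to reach the calling threshold cannot be told apart from these positions.

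The lines also differed over whole chromosomes. The share of a library's peaks was higher in every MOLT4 than in every DND41 library on chromosomes 8, 9, 15, 17, 20 and 21 (6 of 23, 26.1%). It was higher in every DND41 library on chromosomes 2, 3, 6, 12, 13, 14 and 18 (7 of 23, 30.4%). Chromosome 17 took 4.06% ± 0.41 of MOLT4 and 2.97% ± 0.11 of DND41 peaks, and chromosome 18 took 1.52% ± 0.11 and 2.32% ± 0.03 (SD, n = 4 each; exact permutation p = 0.0556 for both). Counting only regions of at least 2 libraries, chromosomes 13 and 21 overlapped and chromosomes 10 (MOLT4) and X (DND41) no longer did. There were more MOLT4- than DND41-specific regions on 22 of 23 chromosomes, where the ratio over all regions was already 1.89. Examples far above it were 171 against 26 on chromosome 17, 135 against 21 on chromosome 20 and 139 against 29 on chromosome 15. The exception was chromosome 18, with 72 against 105. The lowest ratios of the 22 were 1.18 on chromosome 14, 1.32 on chromosome 3 and 1.39 on chromosome 6.

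In bins of 1 Mb, scaled to the length of each list, 690 of 2563 had more peaks in MOLT4 and 643 more in DND41 (limma on log2 of the number plus 0.5, Benjamini-Hochberg adjusted p under 0.05), 26.9% and 25.1% of bins. Without scaling to list length the counts were 513 and 629, so which line had more depends on the scaling. With peaks in regions of at least 2 libraries only, 656 and 615 bins were called. Chromosome 17 had 45 bins toward MOLT4 and 0 toward DND41, chromosome 19 26 and 0, chromosome 15 34 and 1, and chromosome 20 31 and 2. Chromosome 18 had 1 and 35, chromosome 13 9 and 36, and chromosome 6 32 and 73. Regions of at least 2 libraries gave smaller gaps on some of these, 17 and 6 on chromosome 19 and 32 and 51 on chromosome 6. A line difference that changed with time was called in 0 of 2563 bins by limma, with 441 at an unadjusted p under 0.05.

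**Figure D5:**
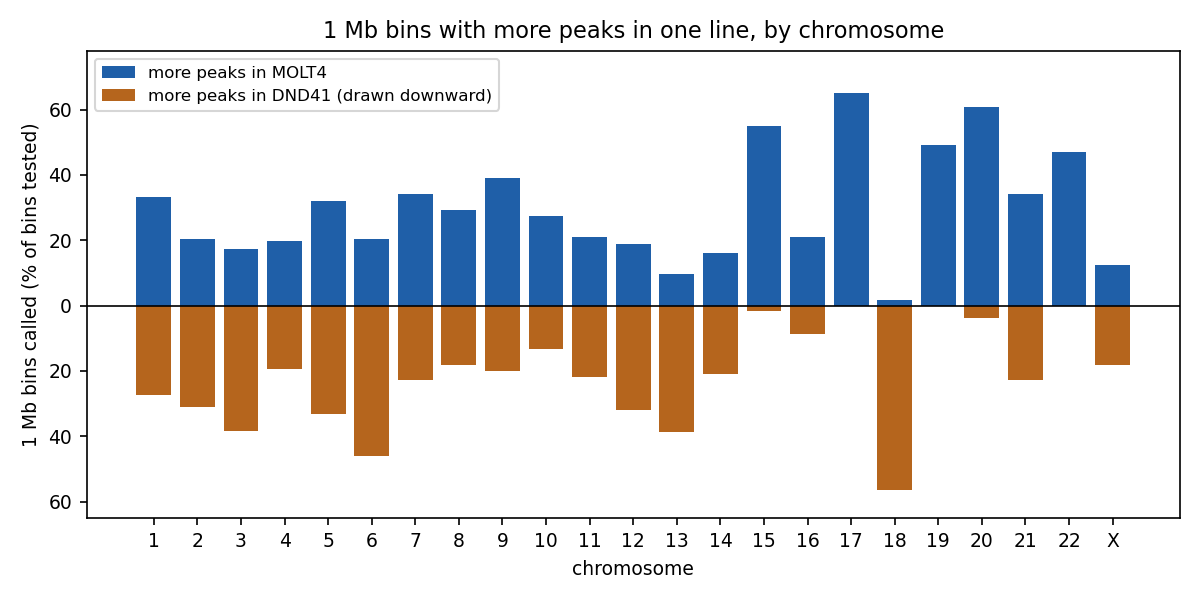
Percent of the 1 Mb bins tested on each chromosome (x axis) with more peaks in MOLT4 (upward) or in DND41 (downward; both axes in percent from 0). Chromosome 17 has 45 bins toward MOLT4 and 0 toward DND41, and chromosome 18 has 1 and 35.

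Among the bins with the largest differences were 2 that lay within stretches described above. On chromosome 17 the bin from 68 to 69 Mb had 11, 11, 11 and 10 peaks in MOLT4 and 0 in each DND41 library. The bin from 22 to 23 Mb of chromosome 14, within TRA and TRD, had 19, 13, 17 and 17 in DND41 and 0 in each MOLT4 library. The bin holding ERG, from 39 to 40 Mb of chromosome 21, had 16, 16, 15 and 15 in MOLT4 and 4, 1, 1 and 2 in DND41 (log2 2.90, SE 0.32; limma adjusted p = 1.02e-05). From 26 to 27 Mb of chromosome 18 DND41 had 22, 16, 20 and 28 peaks and MOLT4 2, 3, 3 and 2 (log2 -2.80, SE 0.23; limma adjusted p = 1.5e-06). Toward MOLT4 the list was completed by bins on chromosomes 5, 1 and 20, and toward DND41 by bins on chromosomes X, 7 and 6. On chromosome 7, from 15 to 16 Mb, DND41 had 3 and 8 peaks at 3 h and 18 and 19 at 24 h, so within DND41 that bin also differed between the times. Time and the peak name tag described below cannot be told apart.

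Called bins lay side by side in blocks. The longest block toward DND41 spanned 14 bins, from 64 to 78 Mb of chromosome 6, with 148 to 212 peaks per DND41 and 61 to 99 per MOLT4 library. Blocks of 13 bins lay at 96 to 109 Mb of chromosome 1 (227 to 300 against 125 to 179) and 7 to 20 Mb of chromosome 7 (177 to 282 against 59 to 93). Toward MOLT4 the longest had 10 bins, 171 to 181 Mb of chromosome 5 (207 to 211 peaks against 137 to 159) and 131 to 141 Mb of chromosome 9 (260 to 303 against 178 to 233). The second of these holds the NOTCH1 window. On the other arm of chromosome 9, the block from 19 to 24 Mb, which holds the CDKN2A and CDKN2B window, had 97 to 123 peaks in DND41 and 57 to 77 in MOLT4.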

How the data were processed

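The 16 deposited files were ATAC-seq peak lists, 1 per library, with 4 columns (chromosome, start, end, peak name), so the authors' peak heights and read totals were not used here and depth is unknown. The authors' deposited positions are hg19, and MACS2 2.1.1.2016030, SAMtools, Picard and Bowtie2 are listed in the submitters' processing notes with no roles. Peak names carry the tag p04 at 3 h and p03 at 24 h, with no explanation in the sources used here. The tag and the time cannot be told apart.

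For the 8 DMSO libraries, peaks of the autosomes and chromosome X were merged where they shared 1 base, and each region was scored for a peak in each library. Positions are counted from 1. Single values were tested with an exact permutation of line labels within time. Widths and bins with a mean of at least 5 peaks were tested with limma 3.58.1 (R 4.3.3), time as a term, Benjamini-Hochberg adjustment at 0.05. On simulated data at these sizes, 0% of 200 regions and 5% of 200 bins changed by a log2 of 0.5 were recovered. At larger sizes, 65.0% of 200 regions changed by a log2 of 1 and 93.5% of those changed by 2 were recovered among 18497, and 69.0% and 97.5% of 200 bins among 2563.

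Named items were the first 5 per direction by rank (width percentile, size of a called difference, regions per run or stretch), every landmark window whose lines did not overlap, and TAL1, TLX3, LMO2, HOXA, RUNX1, GATA3, CDKN2A and the T-cell receptor loci. One named region on chromosome 8 and some windows are not reported here. The members and lists were chosen with earlier results of these data known. The 80 windows were placed by hand without an annotation of hg19; all 80 symbols matched RefSeq on GRCh38.p14 on the same chromosome, and the RefSeq gene would fit 79 of the windows by length. A further 20 windows were placed after values were seen. Alternatives covered each left-out library, list length, merging, flanks, scaling, bin size and a replicate block.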

Additional observations from a re-analysis of the deposited data

How the results depend on the processing

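Of 286 values under alternatives, 214 were counted as like the main value. A count had to be within 1.5-fold of it, and a window difference within 1 SD. For the peak number and the difference at the other time only the sign had to hold. Leaving out each library in turn gave 4721 to 5386 MOLT4-specific and 2512 to 3224 DND41-specific regions, 114 to 179 MOLT4 and 55 to 89 DND41 runs, and 11 to 18 stretches without a MOLT4 and 17 to 21 without a DND41 peak. All of these lie above the main counts, since the rule is looser with fewer libraries. Leaving out a library gave 165 to 236 regions wider in MOLT4 and 166 to 284 in DND41, 563 to 697 and 546 to 669 bins, and 16 to 23 and 9 to 15 landmark windows. The difference at the other time was 55.6 to 64.9 percentage points for MOLT4 regions and -52.3 to -37.6 for DND41 regions, and the log2 ratio of peak number -0.13 to -0.01.

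MOLT4- and DND41-specific regions numbered 8759 and 6610 with at least 3 of 4 libraries and at most 1 of the other line, 8652 and 5970 at 3 h only, 7344 and 5784 at 24 h only, 1241 and 382 with ACBI-1 libraries included, and 10193 and 5106 in the libraries whose labels agree, with the cause not tested. Runs numbered 191 and 93 when broken by regions of 4 or more libraries, 60 and 26 when broken by any region, and 8 and 5 with at least 5 regions. Stretches without a MOLT4 and a DND41 peak numbered 37 and 38 with peaks of 1 library allowed, 63 and 122 with at least 3 regions of the other line, and 0 and 0 with at least 10. Without a peak in ACBI-1 libraries either, 6 stretches of DND41 were left. Without centring, 178 regions were wider in DND41 and 275 in MOLT4, and the cause was not tested. In 2 Mb bins, which are fewer, 456 and 414 differed, and without scaling to list length 513 and 629 of the 1 Mb bins. The HOXA window turned to 0.75 with 50 kb on each side; 24 other window values moved by more than 1 SD, GATA3 to 0, and none turned from one line to the other. The leave-one-out settings for landmark windows, the bins limited to regions of 2 libraries, without scaling and of equal list length, the chromosome shares in such regions, and the libraries whose labels agree were chosen after seeing the data.

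Libraries with the same replicate number did not deviate together (r = -0.03 at 3 h and -0.01 at 24 h), so the number pairs nothing known. With the replicate block, 289 and 328 widths and 674 and 619 bins were called, and the peak number gave an exact permutation p of 0.375. Depth is unknown, so a peak that is missing in a library may be one that was not detectable at its depth.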

Other observations

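Some landmark windows separated the lines within each time but overlapped over both, and they are given here as values. DTX1, a NOTCH target, had 8 and 6 peaks in DND41 at 3 h against 3 and 2 in MOLT4, and 8 and 8 against 7 and 5 at 24 h. The RAG1 and RAG2 window, at the recombinase genes, had 8 and 7 against 6 and 6, then 8 and 9 against 7 and 7. In the other direction BCL11B, a factor that commits cells to the T lineage, had 6 and 3 peaks in MOLT4 against 2 and 2 in DND41 at 3 h, and 6 and 7 against 4 and 3 at 24 h. IL2RA, the interleukin-2 receptor alpha chain, had 4 and 4 against 3 and 1, then 3 and 3 against 2 and 1. Each has an exact permutation p of 0.0556, and these 4 windows were picked after their values were seen.

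Shorter runs also fell in gene windows, which apart from the heavy chain window were placed after the values were seen. DND41 runs of 4 regions lay in windows at DOCK8, a guanine nucleotide exchange factor of lymphocytes (chr9:179044-273138), and at the immunoglobulin heavy chain genes (chr14:106790872-106815956). A DND41 run of 3 regions lay at KLF12 (chr13:74399271-74488708), the window that also held a region wider in DND41. A MOLT4 run of 5 regions lay in a window at SHH, the hedgehog ligand (chr7:155597609-156253942), where MOLT4 libraries with ACBI-1 had 4 to 7 peaks and DND41 libraries 0 or 1. That run is within a block of 8 neighbouring bins, 151 to 159 Mb of chromosome 7, with 192 to 214 peaks in MOLT4 and 85 to 109 in DND41.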
